A study of Homo sapiens with 12 samples.

Results

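Collagens, laminins and integrins are assembled from chains, each made from its own gene. Every gene of the deposited table whose symbol names a numbered collagen alpha chain, a laminin alpha, beta or gamma chain, or a numbered integrin alpha or beta chain was taken, together with ITGAV. This gave 73 of 28035 genes, made up of 42 collagen, 12 laminin, 11 integrin alpha and 8 integrin beta chains. The rule reads symbols and no measured value, although it was set with earlier results of these data known. Of these, 58 averaged 10 or more normalized reads across the 12 libraries and were tested, namely 31 collagen, 11 laminin, 8 integrin alpha and 8 integrin beta chains. Normalized reads are the reads of a gene divided by the authors' scaling factor for the library.

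The libraries held poly(A) RNA of OVCAR-3, an established human ovarian adenocarcinoma line labelled as wild-type epithelial cells, harvested after 6 h. There were 4 groups of 3 libraries, which received IFNa (interferon alpha, a type I interferon), FC-A (Fusicoccin A, a diterpene glycoside of a fungus that holds 14-3-3 proteins on their partners), both agents (Combination) or only the vehicle DMSO. The labels used here state no dose, and every group is the same line at the same hour. Nothing says whether the libraries of a group came from separate cultures, so each p-value reflects no more than the spread among these libraries, which may be technical.

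Collagen chains wind in threes into a triple helix. Collagen IV and laminins polymerise into the sheets of basement membranes, whereas collagens such as collagen I form fibrils of the connective tissue below. An integrin is a pair of an alpha and a beta chain in the cell membrane, and which alpha chain meets which beta chain sets the ligand. The surface epithelium of the ovary rests on a basement membrane of collagen IV and laminins, and ovarian carcinoma cells use integrins to attach to the matrix of the peritoneum.

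The promoters of 2 pairs of neighbouring collagen IV genes are shown because the fold changes of these neighbours with IFNa are compared. Each window runs from 250 bases before to 50 bases after a RefSeq transcription start (build GRCh38.p14), 5′ to 3′ on the strand of the gene, and capitals mark the stretch that lies in the windows of both genes of a pair. COL4A3 (plus strand, chr2:227164374-227164673) and COL4A4 (minus strand, chr2:227164156-227164455) are transcribed away from each other from starts 419 bases apart, and their windows share 82 bases. COL4A2 (plus strand, chr13:110307034-110307333) and COL4A1 (minus strand, chr13:110307108-110307407) start 127 bases apart and share 226 bases.
COL4A3: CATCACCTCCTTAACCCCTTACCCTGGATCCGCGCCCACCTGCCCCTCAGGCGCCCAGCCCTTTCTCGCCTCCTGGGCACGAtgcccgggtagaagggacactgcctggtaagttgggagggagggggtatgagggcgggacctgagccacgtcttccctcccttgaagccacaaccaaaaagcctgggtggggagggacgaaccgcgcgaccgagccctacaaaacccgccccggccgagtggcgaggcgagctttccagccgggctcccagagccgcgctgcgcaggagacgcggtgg
COL4A4: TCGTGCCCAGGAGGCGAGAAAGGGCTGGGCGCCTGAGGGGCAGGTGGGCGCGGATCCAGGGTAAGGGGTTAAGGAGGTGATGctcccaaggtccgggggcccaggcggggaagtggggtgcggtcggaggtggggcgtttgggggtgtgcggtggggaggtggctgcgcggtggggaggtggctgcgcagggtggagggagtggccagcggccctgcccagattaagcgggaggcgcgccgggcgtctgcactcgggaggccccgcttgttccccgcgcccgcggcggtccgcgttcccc
COL4A2: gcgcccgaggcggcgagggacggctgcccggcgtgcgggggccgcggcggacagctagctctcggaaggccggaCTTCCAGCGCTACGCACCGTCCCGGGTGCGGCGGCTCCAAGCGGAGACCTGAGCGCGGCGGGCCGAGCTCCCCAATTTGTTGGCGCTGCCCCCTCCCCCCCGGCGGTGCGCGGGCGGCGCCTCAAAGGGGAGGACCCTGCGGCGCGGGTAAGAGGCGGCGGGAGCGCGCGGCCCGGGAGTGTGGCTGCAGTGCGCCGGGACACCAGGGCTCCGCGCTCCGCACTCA
COL4A1: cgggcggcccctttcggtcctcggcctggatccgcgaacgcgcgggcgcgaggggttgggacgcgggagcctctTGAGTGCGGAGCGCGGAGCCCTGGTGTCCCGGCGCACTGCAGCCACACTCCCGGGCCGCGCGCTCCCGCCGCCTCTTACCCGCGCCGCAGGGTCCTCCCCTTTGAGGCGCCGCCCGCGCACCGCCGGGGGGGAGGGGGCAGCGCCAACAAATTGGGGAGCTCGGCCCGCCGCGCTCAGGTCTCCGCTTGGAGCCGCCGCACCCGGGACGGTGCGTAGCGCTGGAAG
In the third such pair, COL4A5 (plus strand, chrX:108439588-108439887) and COL4A6 (minus strand, chrX:108439409-108439708), the starts were 380 bases apart and the windows shared 121 bases. A further RefSeq window of COL4A6 (chrX:108438373-108438672) does not overlap that of COL4A5, and the reads per gene do not say which start was used.

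The windows of LAMA3 (plus strand, chr18:23872770-23873069) and LAMB3 (minus strand, chr1:209651325-209651624) are shown because these genes encode chains of the same epithelial laminin and had different fold changes with IFNa. Capitals mark matches to the AP-1 motif TGANTCA, read on both strands. In LAMA3 they began 125 and 69 bases before the start, and in LAMB3 the match began 67 bases before it. The LAMB3 window is 1 of 3 in the RefSeq table, and the reads per gene do not say which start was used.
LAMA3: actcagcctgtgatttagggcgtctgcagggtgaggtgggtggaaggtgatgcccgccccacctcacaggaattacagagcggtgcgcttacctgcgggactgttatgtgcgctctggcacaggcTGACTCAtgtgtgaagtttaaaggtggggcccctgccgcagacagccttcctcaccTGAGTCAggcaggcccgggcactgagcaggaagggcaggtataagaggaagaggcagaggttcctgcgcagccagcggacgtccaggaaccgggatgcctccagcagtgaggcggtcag
LAMB3: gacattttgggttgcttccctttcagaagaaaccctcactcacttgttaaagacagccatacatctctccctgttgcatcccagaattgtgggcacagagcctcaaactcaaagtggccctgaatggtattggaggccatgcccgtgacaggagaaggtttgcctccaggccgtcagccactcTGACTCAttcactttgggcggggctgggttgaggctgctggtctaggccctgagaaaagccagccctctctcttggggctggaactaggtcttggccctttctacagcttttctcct
RefSeq windows were matched by symbol for 52 of the 73 genes, 41 of them tested. The AP-1 motif lay in a window of 3 of the 52 genes (LAMA3, LAMB3 and ITGA5), or 5.77%, and in a window of 9.37% of all 27305 genes of the table; of its 35116 windows of this length, 7.71% held it. The interferon-stimulated response element, searched as GAAA, any pair of bases and GAAA on both strands, lay in windows of 2 genes (COL17A1 and ITGB5), or 3.85%, against 4.38% of all genes and 3.57% of all windows. The STAT site TTCNNNGAA lay in windows of 3 (COL11A2, COL7A1 and LAMB2), or 5.77%, against 9.38% of all genes and 7.66% of all windows. These are matches of letters, not measured binding.

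All 10 markers of ovarian epithelium were above the minimum for testing, and their summed level was 442595 to 456084 normalized reads in DMSO and 429514 to 478013 with IFNa, where PAX8 and CDH1 rose and KRT19 fell. Library totals were 31.2 to 39.5 M reads. Normalized reads summed to 31.7 to 32.7 M in the libraries without IFNa and to 36.3 to 37.6 M in those with it. The part of this difference in small fold changes was not tested. The fibroblast list of 11 genes holds COL1A1 and COL1A2 themselves; its sum was 1269 to 1407 in DMSO and 1804 to 2469 with IFNa. Of its genes that are not chains, DCN and LUM read 0 in each DMSO library and at most 1.90 and 1.02 in any library, whereas FAP averaged 206 and ACTA2 191 in DMSO. POSTN, PDGFRB, THY1 and PDGFRA averaged 13.1, 9.28, 8.22 and 3.71. Of the 6 endothelial markers, 5 were in the deposited table and summed to 291 to 373 in DMSO and 201 to 265 with IFNa. Of the 10 leukocyte markers, 7 were in it and summed to 240 to 278 and 200 to 310. PECAM1, CD3E, CD3D and MS4A1 were not in it.

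The highest levels in DMSO were those of COL18A1, ITGB1, ITGA3 and LAMA5. Levels of different genes are compared only as normalized reads per kilobase of exon, with exon lengths from GENCODE release 29, which may differ from the authors' annotation. In DMSO, COL18A1, the collagen that carries endostatin at its end, was highest at 4537 ± 73.4 per kilobase (SD, n = 3). Of its exon bases, 16.4% overlap SLC19A1 on the opposite strand, and whether the counting used strand is not given in the sources used here. ITGB1, the beta chain shared by most matrix-binding integrins, followed at 2708 ± 59.2, and ITGA3, which binds laminin together with ITGB1, at 2571 ± 308. ITGB1 and ITGA3 overlapped between libraries, so their order is not resolved. The laminin chains LAMA5, LAMC1 and LAMB1 stood at 2313, 1798 and 1327 per kilobase. The collagen I chains were lower, with 83.0 per kilobase for COL1A1 and 7.001 for COL1A2, and COL4A3 was lowest of the tested genes at 0.825. With IFNa, ITGA3 was the highest of the 58 at 5465 ± 292 per kilobase, above COL18A1 at 4487 ± 113.

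**Figure D1:**
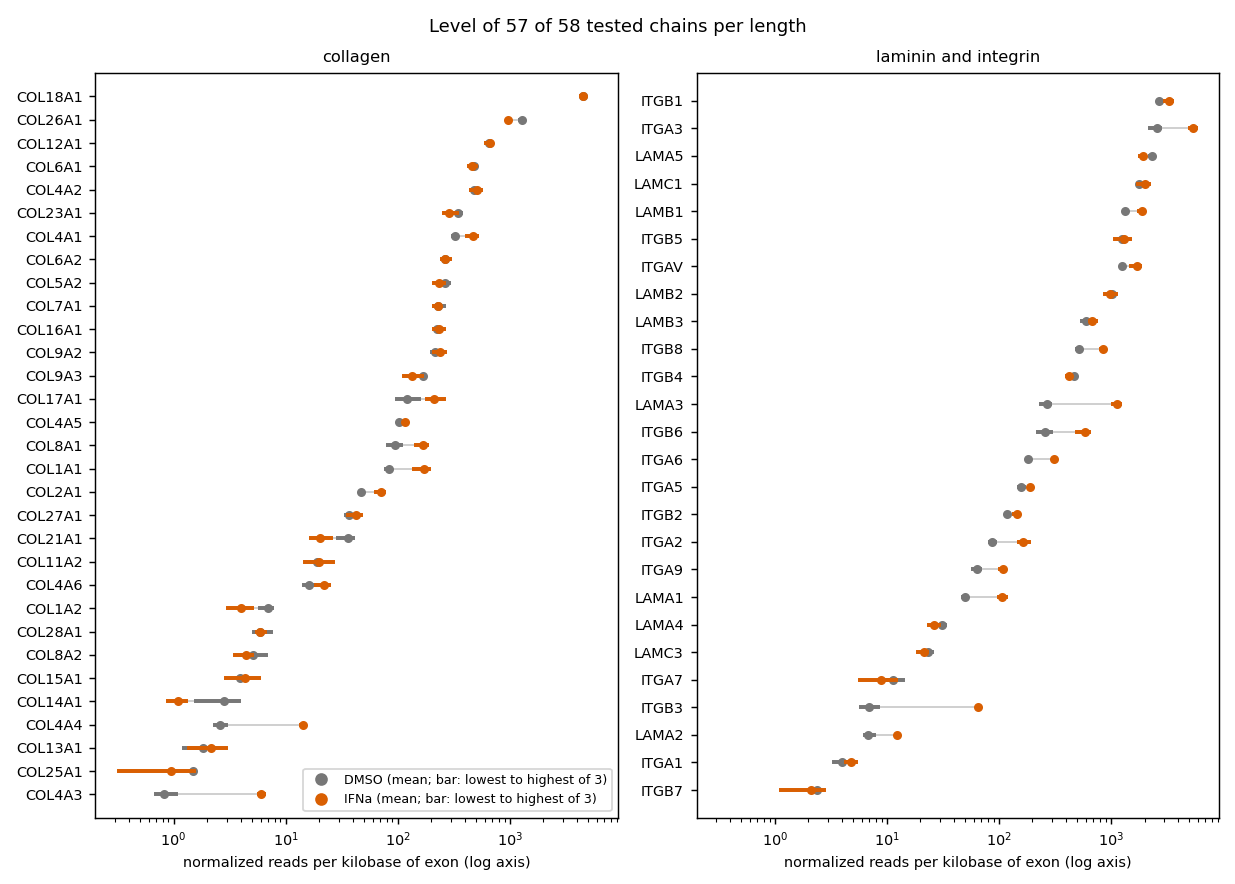
Level of 57 of the 58 tested chains in normalized reads per kilobase of exon (log axis) in DMSO (grey) and IFNa (orange); points are means and bars run from the lowest to the highest of 3 libraries. COL4A3, COL4A4, ITGB3 and LAMA3 show the widest gaps between the groups, and most collagens have overlapping symbols.

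The remaining 15 genes lay below the minimum and were not tested. COL24A1 ranged over 2.76 to 14.2 normalized reads in the 12 libraries, COL6A3 over 3.86 to 16.9, COL22A1 over 2.86 to 13.3, COL5A3 over 0.92 to 8.29, ITGA10 over 4.76 to 16.6, ITGA4 over 3.83 to 11.6 and ITGA11 over 2.14 to 14.3. COL3A1, the partner fibrillar collagen of collagen I in connective tissue, ranged over 0 to 8.16, LAMB4 over 1.07 to 7.26, COL9A1 over 0 to 5.72, COL20A1 over 0 to 5.72, COL6A5 over 0 to 5.28, COL11A1 over 0 to 4.45, COL6A6 over 0 to 1.84 and COL19A1 over 0 to 0.952. COL6A3 had a mean of 9.01 over the 12 libraries, just below the minimum, and COL13A1 of 10.2, just above it.

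With IFNa, most integrin chains and several laminin chains rose, whereas collagens went both ways or did not pass. Against DMSO, 34 of the 58 chains passed limma's test at an adjusted p under 0.05, 26 higher and 8 lower; of all 15990 genes tested, 46.9% passed, 25.4% higher and 21.5% lower. By family, 9 collagens rose, 6 fell and 16 did not pass; 6 laminins rose, 1 fell and 4 did not pass; 6 integrin alpha chains rose and 2 did not pass; and 5 integrin beta chains rose, 1 fell and 2 did not pass. The median log2 fold change was 0.18 over the 58 chains and -0.0065 over all genes tested. At least 2-fold changes past the threshold numbered 9, of which 8 were higher, against 9% of all genes. Under quantile scaling, which moved the median of all genes to -0.099, 20 chains were higher and 12 lower. In bulk RNA, a change in the share of cells that express a gene and a change in RNA per cell cannot be told apart.

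**Figure D2:**
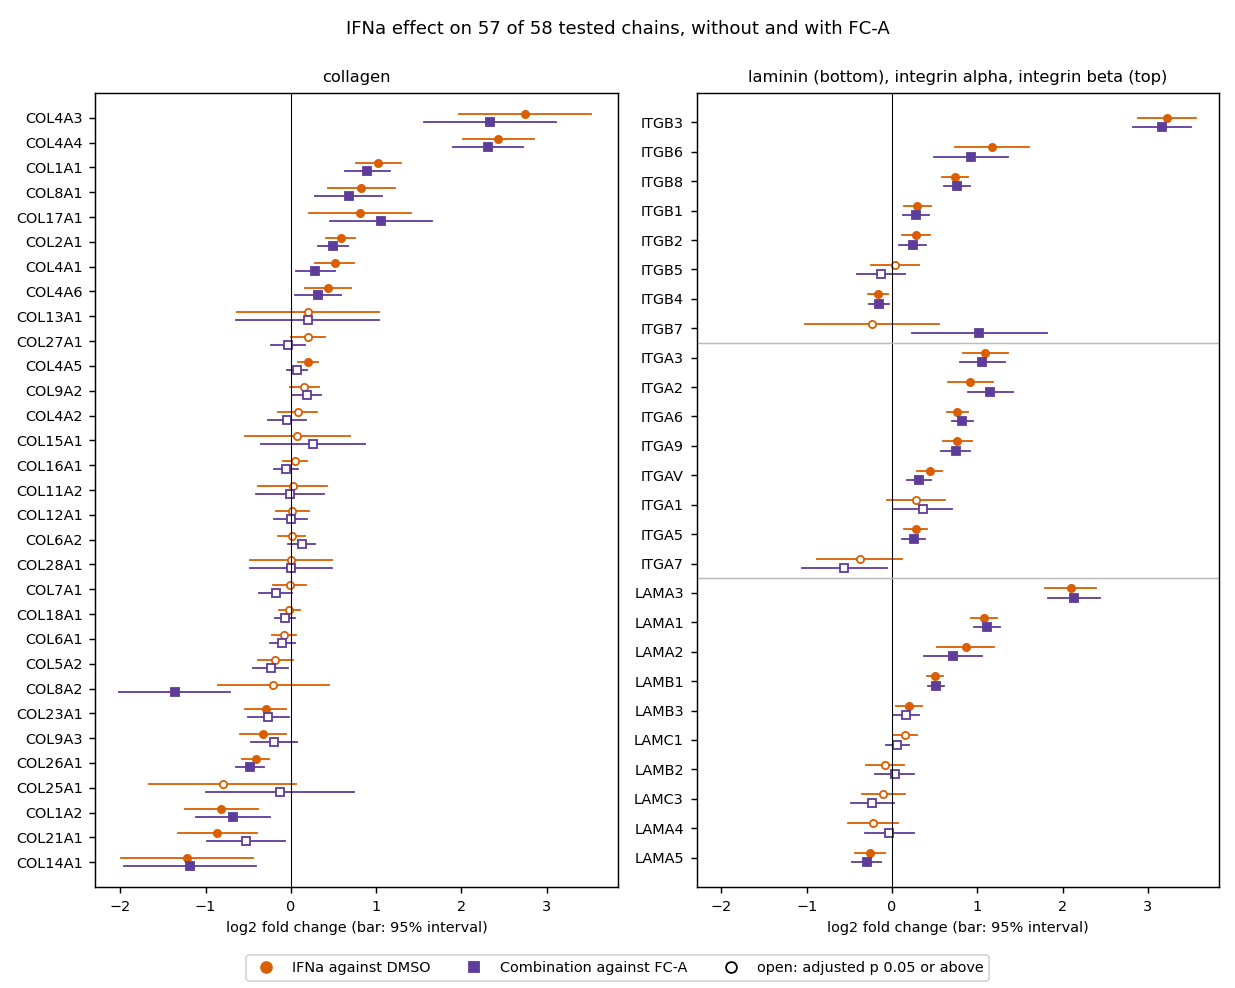
Log2 fold change of 57 of the 58 tested chains for IFNa against DMSO (orange circles) and for the Combination against FC-A (purple squares), with 95% intervals; filled symbols have an adjusted p under 0.05. ITGB3, COL4A3, COL4A4 and LAMA3 lie above 2 in both comparisons and COL14A1 lies below −1 in both. COL4A3 reached the minimum for testing only through libraries with IFNa, and COL14A1 only through those without it.

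The 3 largest laminin fold changes with IFNa belonged to alpha chains. Library values below are normalized reads of libraries 1, 2 and 3 of each group, in that order. LAMA3, the alpha chain of the epithelial laminin of hemidesmosomes, read 4196, 4055 and 3506 in DMSO, 4318, 3200.3 and 2513 with FC-A, 17265, 17645 and 15236 with IFNa and 14116, 15236 and 13594 in the Combination. No DMSO or FC-A library came near any library with IFNa, and IFNa against DMSO gave a 4.27-fold rise (log2 fold change 2.09, SE 0.14, adjusted p 2.21e-08). LAMA1, the alpha chain of the laminin of early embryos, read 801, 818 and 769 in DMSO, 793, 779.5 and 799 with FC-A, 1579, 1837 and 1643 with IFNa and 1565, 1729 and 1851 in the Combination. Each of the 6 libraries with IFNa was above each of the 6 without it (log2 fold change 1.08, SE 0.07, adjusted p 1.41e-08). LAMB1, a beta chain of laminins in most basement membranes, read 10784, 10674 and 10953 in DMSO, 10427, 10059 and 9838 with FC-A, 15524, 15868 and 14524 with IFNa and 14492, 14605 and 14342 in the Combination. It rose 1.42-fold with little spread (log2 fold change 0.50, SE 0.044, adjusted p 4.52e-07). LAMA2, the alpha chain of muscle laminin, read 70.2 ± 7.51 in DMSO (SD, n = 3) and rose to 128 ± 3.47 with IFNa (log2 fold change 0.86, adjusted p 0.000431).

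LAMB3, the beta chain of the LAMA3 laminin, had a smaller fold change. It rose by a log2 fold change of 0.20 (adjusted p 0.0326), and lost its call without DMSO 2, DMSO 3, IFNa 1 or IFNa 2 (adjusted p 0.0533 to 0.145). LAMA5, the main alpha chain of adult epithelial basement membranes, fell from 33053 ± 949 to 27677 ± 1195 (log2 fold change -0.26, adjusted p 0.0178), a call lost without DMSO 3 or IFNa 1 (0.0631 and 0.0759). LAMC1, the gamma chain shared by most laminins, did not pass at 0.15 (95% interval 0.014 to 0.29), nor did LAMB2 at -0.083, LAMC3 at -0.10 or LAMA4 at -0.23. Without IFNa 3, LAMC1 passed (log2 fold change 0.24, adjusted p 0.000915).

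Every integrin alpha chain that passed was higher with IFNa. ITGA3, the laminin-binding partner of ITGB1, read 27006, 26880.3 and 21722 in DMSO, 29821, 23869 and 19293 with FC-A, 54219.5, 56056 and 50439 with IFNa and 50885, 51333 and 47380.2 in the Combination. The groups without and with IFNa were far apart, and the rise over DMSO was 2.13-fold (log2 fold change 1.09, SE 0.12, adjusted p 5.49e-06). ITGA6, the alpha chain of the hemidesmosome integrin, read 1163, 1237 and 1193 in DMSO, 1252, 1126 and 1068 with FC-A, 2079, 2047 and 1980.4 with IFNa and 2054, 1994 and 2046 in the Combination. Its libraries within each group lay close together (log2 fold change 0.76, SE 0.058, adjusted p 8.88e-08). ITGA9, a receptor chain for tenascin and other ligands, read 531, 492 and 562 in DMSO, 474, 515 and 584 with FC-A, 890.4, 854 and 946 with IFNa and 856, 902 and 870.2 in the Combination, again without overlap (log2 fold change 0.76, SE 0.08, adjusted p 2.59e-06). ITGA2, a collagen and laminin receptor chain, rose from 683 ± 40.8 to 1297 ± 147 (log2 fold change 0.92, adjusted p 2.46e-05). ITGAV, the alpha chain of the receptors for RGD-containing ligands, rose by a log2 fold change of 0.44 (adjusted p 9.46e-05), and ITGA5, the fibronectin receptor chain, by a log2 fold change of 0.28 (adjusted p 0.00235). ITGA1, a collagen receptor chain, had a log2 fold change of 0.28 (95% interval -0.06 to 0.62) and ITGA7, a laminin receptor chain of muscle, -0.38 (-0.88 to 0.12), and neither passed.

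ITGB3 had the largest fold change of the 58 chains with IFNa. This beta chain, known from platelets and from the vitronectin receptor with ITGAV, read 29.02, 36.4 and 25.7 in DMSO, 37.4, 28.01 and 25.8 with FC-A, 292, 296 and 280.4 with IFNa and 270.2, 276 and 285 in the Combination. All libraries with IFNa were above 270 and all others below 38, a 9.34-fold rise (log2 fold change 3.22, SE 0.16, adjusted p 5.4e-10). In GENCODE release 29, 51.6% of the exon bases of ITGB3 also belong to AC068234.1 on the same strand, so reads of the overlap cannot be told apart. ITGB8, which pairs with ITGAV to bind latent TGF-beta, read 7503, 7994 and 7947 in DMSO, 6687, 7036 and 8268 with FC-A, 13293, 12287 and 13437 with IFNa and 11617, 12571 and 12981 in the Combination. No library without IFNa reached the lowest with it (log2 fold change 0.73, SE 0.072, adjusted p 1.25e-06). ITGB6, the epithelial partner of ITGAV that also binds latent TGF-beta, read 1383, 1238 and 1041 in DMSO, 2151, 1292 and 996 with FC-A, 2927, 3013 and 2327 with IFNa and 2793, 2585 and 2612 in the Combination. FC-A 1 stood close to the lowest IFNa library, while the DMSO libraries stayed well below (log2 fold change 1.17, SE 0.20, adjusted p 0.000278). Of its exon bases, 20.6% are shared with AC092153.1 on the same strand.

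The other beta chains had smaller fold changes. ITGB1 rose by a log2 fold change of 0.30 (adjusted p 0.00365), and under quantile scaling its value was 0.014 with adjusted p 0.851. ITGB2, the leukocyte integrin chain, rose by a log2 fold change of 0.28 (adjusted p 0.00692), while the leukocyte marker PTPRC read 10.2 ± 4.88 in DMSO and 20.1 ± 3.68 with IFNa (log2 fold change 0.99, adjusted p 0.0507, SD, n = 3). PTPRC reached the minimum for testing only through its IFNa libraries, so being high there was a condition of its being tested. It averaged 7.58 in the Combination. The markers CD14 and CSF1R had -0.20 and -0.27 and did not pass either, and the part of other cells in the ITGB2 value was not tested. ITGB4, the hemidesmosome beta chain, fell (log2 fold change -0.16, adjusted p 0.0201), a call lost without DMSO 1, DMSO 3, IFNa 1 or IFNa 2 (0.0536 to 0.0911). ITGB5 had a log2 fold change of 0.034 (-0.25 to 0.32) and ITGB7, a lymphocyte integrin chain near the minimum level, -0.23 (-1.02 to 0.55). Neither passed.

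COL4A3 and COL4A4, chains of the network-forming collagen IV, had the largest fold changes of the collagens. COL4A4, a chain of the kidney filter's collagen IV, read 23.6, 24.9 and 29.6 in DMSO, 18.7, 30.9 and 28.5 with FC-A, 148, 146 and 139 with IFNa and 128, 155 and 112 in the Combination. The IFNa and Combination libraries lay several-fold above the rest (log2 fold change 2.43, SE 0.19, adjusted p 1.36e-07). COL4A3, its divergent neighbour and partner chain, read 6.35, 9.57 and 6.67 in DMSO, 9.80, 2.90 and 10.1 with FC-A, 58.1, 52.4 and 55.6 with IFNa and 36.9, 48.6 and 31.0 in the Combination. It reached the minimum for testing only through the libraries with IFNa, so its rise (log2 fold change 2.74, SE 0.36, adjusted p 2.4e-05) was a condition of its being tested. COL4A1 rose from 4838 ± 207 to 6934 ± 690.1 (log2 fold change 0.52, adjusted p 0.0012), and COL4A2, which shares its promoter region and its triple helix, had a log2 fold change of 0.079 (95% interval -0.15 to 0.30) and did not pass. COL4A6 rose by a log2 fold change of 0.44 (adjusted p 0.0108), a call lost without DMSO 1 or IFNa 1 (0.0527 and 0.0568), and COL4A5 by a log2 fold change of 0.20 (adjusted p 0.00923), a call lost under quantile scaling at 0.08 (0.262).

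The chains of collagen I moved in opposite directions. COL1A1, the major chain of the collagen I triple helix, read 845, 768 and 830.5 in DMSO, 945, 909 and 999.7 with FC-A, 1778, 1889 and 1362 with IFNa and 2133, 1702 and 1528 in the Combination. Every library with IFNa was above every library without it, and the rise over DMSO was 2.04-fold (log2 fold change 1.03, SE 0.12, adjusted p 8.97e-06). COL1A2, its partner, read 66.2, 83.2 and 84.9 in DMSO, 65.9, 98.5 and 85.5 with FC-A, 43.9, 34.3 and 55.6 with IFNa and 52.8, 45.0 and 55.5 in the Combination. Those values were lower with IFNa, by 1.76-fold (log2 fold change -0.81, SE 0.20, adjusted p 0.00441). The fibroblast markers FAP and ACTA2, tested beside them, did not pass, with log2 fold changes of 0.21 and 0.26, and the part of other cells in the collagen I values was not tested.

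**Figure D3:**
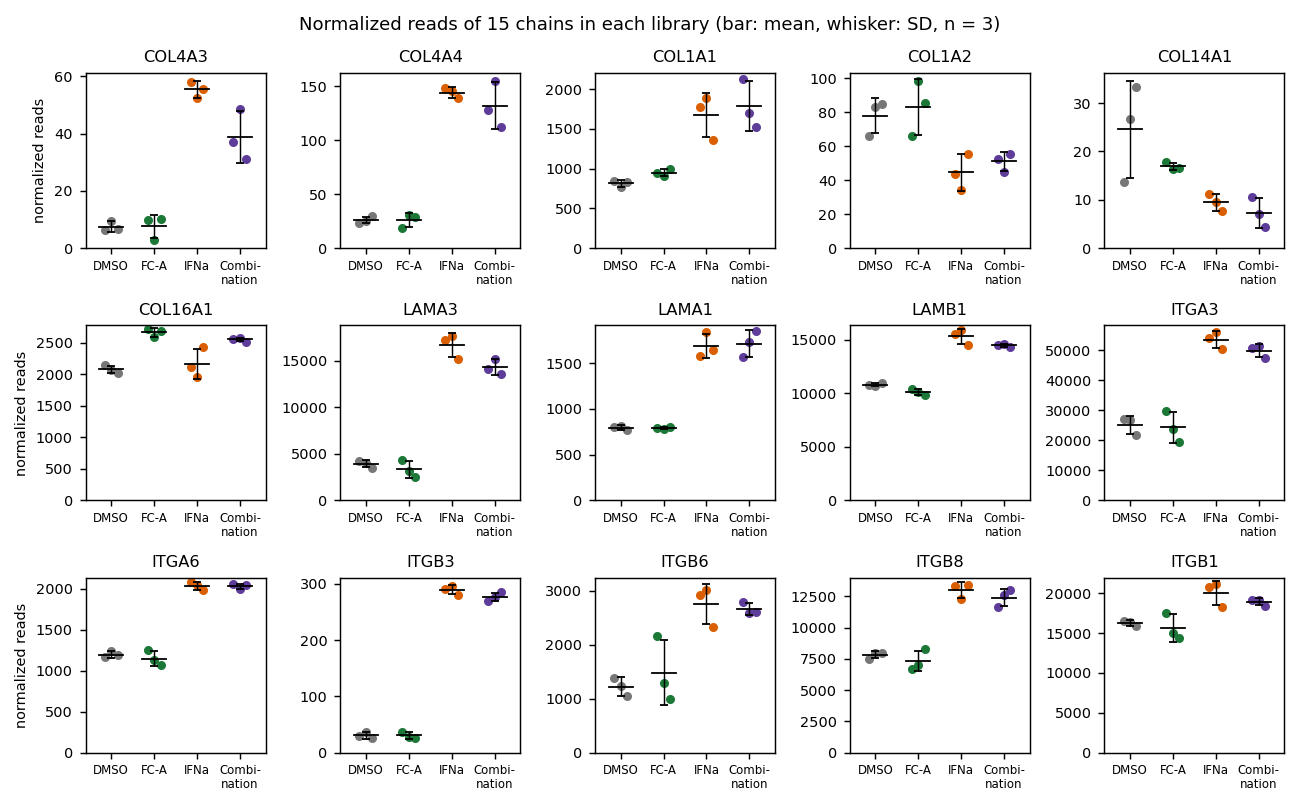
Normalized reads of 15 chains in each of the 12 libraries (points), with group mean (bar) and SD (whisker, n = 3); each panel has its own axis from 0. COL1A1 is higher and COL1A2 lower in the IFNa and Combination libraries, and COL16A1 is higher in the FC-A and Combination libraries than in DMSO.

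Other collagens that rose with IFNa were COL8A1, a network collagen of blood vessels and cornea (log2 fold change 0.83, adjusted p 0.00199), COL2A1, the fibril collagen of cartilage (log2 fold change 0.58, adjusted p 3.91e-05), and COL17A1, the transmembrane collagen of hemidesmosomes (log2 fold change 0.81, adjusted p 0.0278). COL17A1 lost its call without DMSO 2, DMSO 3, IFNa 1 or IFNa 3 (adjusted p 0.0525 to 0.103). Those that fell, besides COL1A2, were COL14A1, a fibril-associated collagen, COL21A1 of the same class (log2 fold change -0.86, adjusted p 0.00443), COL26A1 (log2 fold change -0.41, adjusted p 0.000457), COL9A3, a chain of cartilage collagen IX (log2 fold change -0.33, adjusted p 0.0436), and COL23A1, a transmembrane collagen (log2 fold change -0.30, adjusted p 0.0439). COL14A1 read 13.6, 26.8 and 33.4 in DMSO, 17.8, 16.4 and 16.6 with FC-A, 11.2, 9.52 and 7.64 with IFNa and 10.6, 7.11 and 4.27 in the Combination. It reached the minimum for testing only through the libraries without IFNa. Being high there was a condition of its being tested, in this and every other comparison. The DMSO libraries differed among themselves by more than the IFNa libraries did, and the fall (log2 fold change -1.22, SE 0.36, adjusted p 0.013) lost its call without DMSO 2 or DMSO 3 (0.0503 and 0.0716). COL9A3 and COL23A1 each lost theirs without any DMSO library, IFNa 1, IFNa 2, FC-A 2, Combination 1 or Combination 2 (0.0520 to 0.196 and 0.0553 to 0.158).

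The 16 collagens that did not pass included the abundant ones. COL18A1 had a log2 fold change of -0.016 (95% interval -0.14 to 0.10), COL12A1, a fibril-associated collagen, 0.017 (-0.18 to 0.21), COL6A1 and COL6A2, of the beaded filaments of collagen VI, -0.082 and 0.0076, and COL7A1, of the anchoring fibrils below hemidesmosomes, -0.013 (-0.21 to 0.18). Log2 fold changes were -0.18 for COL5A2, 0.16 for COL9A2, 0.20 for COL27A1, 0.053 for COL16A1, 0.02 for COL11A2, 0.0028 for COL28A1, 0.076 for COL15A1 and -0.20 for COL8A2. Near the minimum level, COL13A1 read 7.26, 12.4 and 12.4 in DMSO, 12.5, 7.73 and 4.60 with FC-A, 8.16, 12.4 and 17.5 with IFNa and 9.499, 7.11 and 10.7 in the Combination, with a wide interval of -0.63 to 1.04 around 0.20. COL25A1 read 12.7, 13.4 and 13.3 in DMSO, 11.6, 11.6 and 15.6 with FC-A, 13.3, 2.86 and 8.73 with IFNa and 9.499, 14.2 and 11.7 in the Combination, and IFNa 2 alone was below 3, with a log2 fold change of -0.80 (-1.67 to 0.064).

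The ratio of partner chains within a library shows how unevenly the chains of a protein moved. The pairs were set after the values had been seen, so 16 ratios were computed as a description only. They are ratios of reads, not corrected for length, so what can be read from them is how they differ between groups. COL1A1 stood at 10.6 ± 1.90 times COL1A2 in DMSO (SD, n = 3), 11.8 ± 2.56 with FC-A, 40.0 ± 15.3 with IFNa and 35.3 ± 6.82 in the Combination. LAMA3 stood at 1.40 ± 0.0568 times LAMB3 in DMSO, 1.23 ± 0.226 with FC-A, 5.22 ± 0.272 with IFNa and 4.79 ± 0.318 in the Combination. In both pairs the lowest ratio with IFNa was above the highest without it. ITGA6 to ITGB4, the chains of the hemidesmosome integrin, went from 0.376 ± 0.0185 in DMSO to 0.716 ± 0.0504 with IFNa, and ITGA3 to ITGB1 from 1.55 ± 0.154 to 2.68 ± 0.0771. ITGB3 to ITGAV went from 0.00296 ± 0.000481 to 0.0208 ± 0.00141. Of the other ratios, those lower with IFNa than in DMSO were, in DMSO and with IFNa, LAMA5 to LAMC1 2.19 and 1.66, ITGB5 to ITGAV 0.795 and 0.6 and COL6A1 to COL6A2 1.82 and 1.71. Those higher with IFNa were, in the same order, COL8A1 to COL8A2 39.6 and 78.2, COL9A2 to COL9A3 1.11 and 1.56, LAMA1 to LAMB1 0.0737 and 0.11, ITGB6 to ITGAV 0.119 and 0.197 and ITGB8 to ITGAV 0.763 and 0.939.

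Ratios were also taken for the divergent collagen IV pairs. COL4A1 to COL4A2, whose windows overlap most, was 0.52 ± 0.0109 in DMSO, 0.536 ± 0.0201 with FC-A, 0.704 ± 0.00877 with IFNa and 0.676 ± 0.0143 in the Combination, with no overlap between libraries with and without IFNa. COL4A3 to COL4A4 was 0.293 ± 0.0821, 0.324 ± 0.217, 0.385 ± 0.0223 and 0.293 ± 0.0186 in the same order, and these ranges overlapped. COL4A5 to COL4A6 was 8.16 ± 0.869, 9.08 ± 0.993, 6.90 ± 0.723 and 7.66 ± 0.971, also with overlap. COL4A3 has few reads in DMSO, which widens its ratio there.

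**Figure D4:**
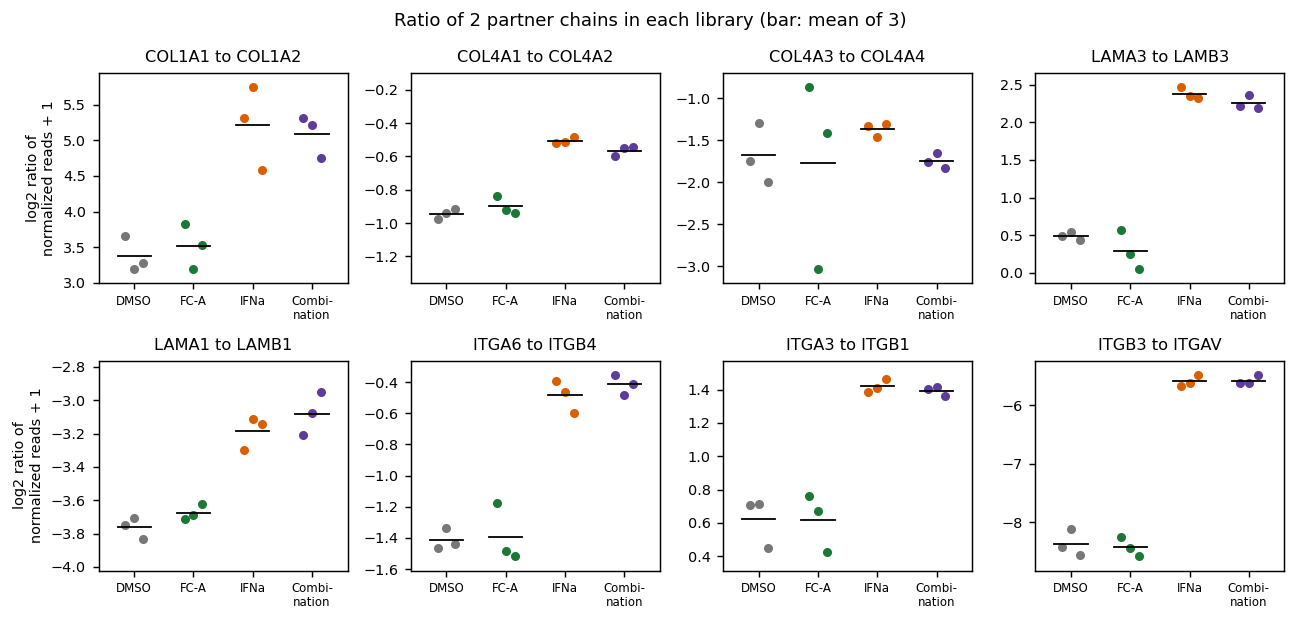
Log2 ratio of 2 partner chains in each library (points) with the group mean (bar); panels have separate axes. In every panel but COL4A3 to COL4A4, all IFNa and Combination libraries lie above all DMSO and FC-A libraries.

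Each of the 28 chains called for IFNa both with and without FC-A had the same direction in both settings. The Combination against FC-A shares no library with IFNa against DMSO. It called 30 of the 58 chains, 24 higher and 6 lower, where 48.9% of all genes passed, 26.6% higher and 22.3% lower. Both comparisons called 28 chains, which is 82.4% of the first and 93.3% of the second, 23 higher in both and 5 lower in both; over all genes, 6302 were called in both, 83.9% of the first and 80.6% of the second, and these moved in the same direction too. Over the 58 chains the log2 fold changes had a Pearson correlation of 0.94 and a Spearman correlation of 0.91, given as a description, since genes are not replicates. ITGB3 changed 8.96-fold (log2 fold change 3.16, SE 0.16, adjusted p 5.86e-10), LAMA3 4.38-fold (adjusted p 1.54e-08) and COL1A1 1.86-fold (adjusted p 2.97e-05). COL1A2 again fell (log2 fold change -0.68, adjusted p 0.0122), a call lost without FC-A 2 or Combination 2 (adjusted p 0.0638 and 0.05002). Calls of this comparison that were also lost by leaving out 1 library were those of COL14A1 (without Combination 3, 0.0657), ITGB2 (Combination 1 or FC-A 3, 0.0809 to 0.0855) and ITGB4 (Combination 1, FC-A 2 or FC-A 3, 0.0674 to 0.120). COL4A1 lost its call without Combination 1, Combination 2, FC-A 2 or FC-A 3 (0.0669 to 0.168), and COL4A6 without Combination 1 or 3, DMSO 1 or 2, FC-A 2 or 3, or IFNa 2 (0.0525 to 0.172).

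With limma, some chains passed in 1 of these comparisons only, and no test of the difference between the comparisons passed. COL21A1, COL23A1, COL9A3, COL4A5 and LAMB3 were among those that passed with IFNa against DMSO, and had -0.53, -0.27, -0.20, 0.072 and 0.16 on the log2 scale in the Combination against FC-A. There, COL21A1 passed with edgeR (adjusted p 0.0421), with DESeq2 (0.0246) and in the authors' deposited table (0.0343), and COL23A1 with edgeR (0.0442) and DESeq2 (0.0390). COL8A2 and ITGB7 passed in the latter alone, with log2 fold changes of -1.36 (adjusted p 0.00193) and 1.02 (adjusted p 0.0321). COL8A2 averaged below the minimum for testing in the Combination and reached it only through the other libraries. Being high in those was a condition of its being tested, in this and every other comparison. ITGB7 reached the minimum for testing only through its Combination libraries, so being high there was a condition of its being tested, in this and every other comparison. It lost its call without Combination 1, Combination 2, FC-A 1 or FC-A 2 (0.0689 to 0.125). In GENCODE release 29, 42.1% of the exon bases of ITGB7 overlap ZNF740 on the opposite strand, and whether the counting used strand is not given in the sources used here. Quantile scaling moved the median of all genes to -0.11 here and gave 18 chains higher and 17 lower.

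FC-A alone left nearly all chains without a detectable change. Only 1 of the 58 chains passed, COL16A1, while 0.300% of all genes did, and 6 had an unadjusted p under 0.05 (8.61% of all genes). COL16A1, a fibril-associated collagen, read 2144, 2063 and 2026 in DMSO, 2715, 2585 and 2694 with FC-A, 2113, 1952 and 2427 with IFNa and 2567, 2573 and 2519 in the Combination. The FC-A libraries lay above the DMSO libraries without overlap, by 1.28-fold (log2 fold change 0.36, SE 0.065, adjusted p 0.0342). Leaving out any DMSO or FC-A library, IFNa 1, Combination 1 or Combination 2 ended the call (adjusted p 0.0517 to 0.187), with log2 fold changes of 0.34 to 0.38. In the authors' deposited table COL16A1 has a log2 fold change of 0.36 and an adjusted p of 0.000333, and COL7A1 of 0.41 and 0.00444. COL7A1 read 2561 ± 298 in DMSO and 3412 ± 335 with FC-A (log2 fold change 0.42, SE 0.091, adjusted p 0.0773), which missed the threshold. The other 4 with an unadjusted p under 0.05 were, on the log2 scale, COL27A1 (0.27), COL9A2 (0.21), LAMA4 (-0.32) and LAMB1 (-0.096), with adjusted p from 0.373 to 0.578. For most chains the interval was narrow: the median of its reach to either side was 0.25 on the log2 scale.

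With all libraries, adding FC-A to IFNa changed no chain past limma's threshold. In the Combination against IFNa, limma, edgeR, DESeq2 and the authors' deposited table each called 0 of the chains, and limma called 0.331% of all genes; 8 chains had an unadjusted p under 0.05, as had 13.2% of all genes. The smallest adjusted p, 0.116, belonged to COL8A2, a partner chain of COL8A1. It read 21.8, 19.1 and 31.5 in DMSO, 29.4, 25.1 and 14.7 with FC-A, 23.5, 21.9 and 16.4 with IFNa and 6.33, 9.47 and 8.54 in the Combination. The Combination libraries were below all others, with a log2 fold change of -1.243 against IFNa (95% interval -1.89 to -0.59). COL8A2 reached the minimum for testing only through the libraries outside the Combination. ITGB7 read 10.9, 10.5 and 10.5 in DMSO, 8.91, 6.76 and 13.8 with FC-A, 5.10, 12.4 and 10.9 with IFNa and 26.4, 22.5 and 13.9 in the Combination. Its Combination libraries were above all others, only just so for Combination 3, which is also what brought it past the minimum for testing, and the log2 fold change was 1.10 (0.31 to 1.89, adjusted p 0.24). COL16A1 had a log2 fold change of 0.24 (0.10 to 0.38, adjusted p 0.151) and COL7A1 0.25 (adjusted p 0.278). COL9A3, COL9A2, COL21A1 and LAMC1 had log2 fold changes of 0.39, 0.24, 0.46 and -0.15, with adjusted p from 0.221 to 0.374. Without IFNa 3, 5 chains passed: COL16A1 (0.33, adjusted p 0.00870), COL9A3 (0.55, 0.0245), COL9A2 (0.32, 0.0411), LAMC1 (-0.24, 0.0210) and COL8A2 (-1.39, 0.0432).

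**Figure D5:**
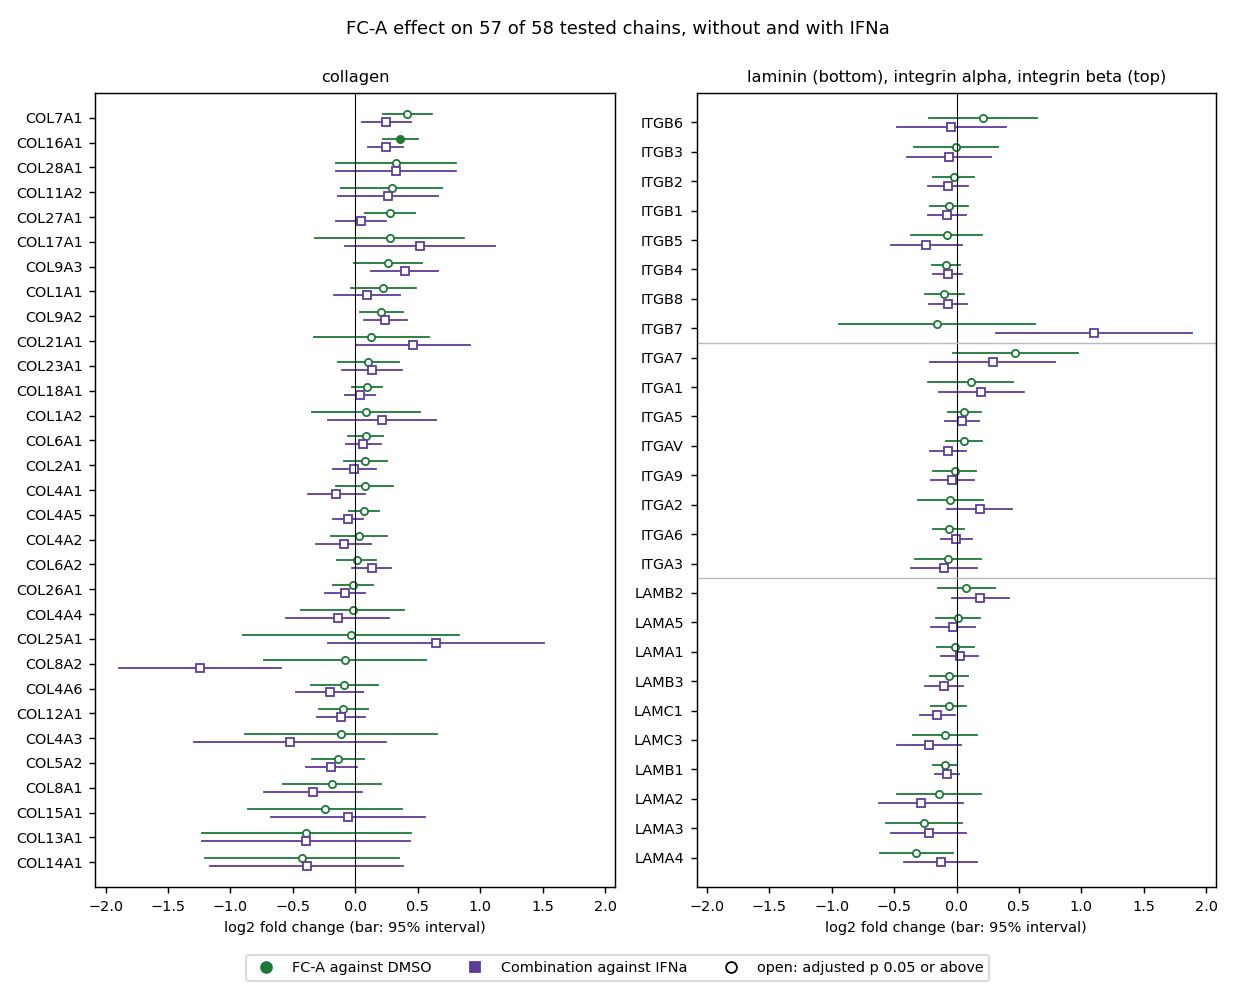
Log2 fold change of 57 of the 58 tested chains for FC-A against DMSO (green circles) and for the Combination against IFNa (purple squares), with 95% intervals; filled symbols have an adjusted p under 0.05. COL16A1 in FC-A against DMSO is the only filled symbol, and COL8A2 and ITGB7 stand apart in the Combination against IFNa with wide intervals.

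Whether the effect of FC-A differed with IFNa was tested as an interaction. No chain passed with limma, edgeR or DESeq2, and limma called 0% of all genes. An unadjusted p under 0.05 was found for 2 chains and for 3.92% of all genes. COL8A2, tested only because of its libraries outside the Combination, had -1.16 (95% interval -2.08 to -0.24). ITGB7, tested only because of its Combination libraries, had 1.26 (0.14 to 2.37). The reach of the interval to either side, not adjusted for the number of genes tested, had a median of 0.35 over the 58 chains. Smaller interactions were not detectable, and larger ones could also have missed the adjusted threshold, as the values of COL8A2 and ITGB7 did.

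The Combination against DMSO, which shares its controls with the IFNa comparison, called 36 chains, 27 higher and 9 lower, where 48.3% of all genes passed, 26.1% higher and 22.2% lower. ITGB3 had a log2 fold change of 3.16 beside 3.22 with IFNa alone, LAMA3 1.87 beside 2.09, COL4A4 2.29 beside 2.43 and COL1A1 1.12 beside 1.03. The hemidesmosome collagen COL17A1 went from 860.2 ± 208 normalized reads in DMSO to 2199 ± 751 in the Combination (log2 fold change 1.33, adjusted p 0.00131), with IFNa alone at 1500.2 ± 286. Its Combination and IFNa libraries overlapped, and it did not pass in the Combination against IFNa. The authors' deposited table gives a log2 fold change of 0.55 there (adjusted p 0.552). Chains that passed here but not with IFNa alone were, with log2 fold changes, COL16A1 (0.30), COL9A2 (0.40), COL27A1 (0.24), COL7A1 (0.24), ITGA1 (0.48), COL5A2 (-0.37), COL8A2 (-1.45, tested only because of its libraries outside the Combination), LAMA4 (-0.35) and LAMC3 (-0.32). Of these, COL27A1, COL7A1, ITGA1, LAMA4 and LAMC3 lost their call without single libraries: COL27A1 without any Combination library, DMSO 2, DMSO 3, FC-A 2 or IFNa 1 (adjusted p 0.0554 to 0.153), and COL7A1 without Combination 1 or 3, DMSO 2 or 3, or IFNa 1 (0.0571 to 0.177). ITGA1 lost its call without Combination 1 or 2, or DMSO 2 or 3 (0.0586 to 0.101), LAMA4 without Combination 1 or 2, any DMSO library, FC-A 2 or IFNa 1 (0.0531 to 0.209), and LAMC3 without Combination 2 or 3, or DMSO 2 or 3 (0.0650 to 0.150). That list does not show a difference between the treatments, for which the comparison with IFNa is the test. Among the other calls against DMSO, those of COL1A2, COL4A1, COL8A1, ITGB1 and ITGB2 were also lost without single libraries (adjusted p 0.0502 to 0.148). Under quantile scaling 20 chains were higher and 14 lower.

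Genes that work with these chains were followed through lists, whose counts with IFNa stand beside 25.4% of all genes higher and 21.5% lower, 46.9% in all. None of the 6 lists had a gene past the threshold in FC-A against DMSO, in the Combination against IFNa or in the interaction. With IFNa, 11 of the 15 tested other integrin ligands rose, 1 fell and 3 did not pass, with a median log2 fold change of 0.62; the largest were THBS1, a secreted ligand of several integrins (log2 fold change 2.49, adjusted p 1.78e-05), ICAM1, the ligand of ITGB2 integrins (log2 fold change 1.74, adjusted p 1.56e-07), and CTGF, a matricellular protein (log2 fold change 1.59, adjusted p 8.36e-07). Of 21 adapters on the inner side of integrins, 11 rose and 3 fell (median log2 fold change 0.26), led on the same scale by the tensins TNS4 (1.79) and TNS1 (1.242) and by BCAR1 (0.82). Of 15 non-integrin matrix receptors and tetraspanins, 7 rose and 3 fell (median log2 fold change 0.21), led by PLAUR, the urokinase receptor (2.09), the syndecan SDC4 (0.85) and the tetraspanin CD82 (0.78).

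The genes that process collagen were called about as often as all genes, of which 25.4% were higher and 21.5% lower. Of 24 tested hydroxylases, chaperones, trimming and cross-linking enzymes, 5 rose, 5 fell and 14 did not pass (median log2 fold change 0.079). The 3 largest changes, on the same scale, were falls, of P4HA3, a prolyl hydroxylase subunit (-0.95), and of the enhancers of procollagen trimming PCOLCE (-0.69) and PCOLCE2 (-0.48). P4HA3 averaged 18.5 in DMSO, 17.1 with FC-A, 9.19 with IFNa and 7.45 in the Combination. It reached the minimum for testing only through the libraries without IFNa, so being high there was a condition of its being tested. Among 10 basement membrane partners of laminin and collagen IV, 3 rose and 4 fell (median log2 fold change -0.10), with agrin, AGRN (0.70), and TINAGL1 (0.71) higher and SMOC2 (-0.85) lower. Of integrin chains whose symbols carry letters after the number or in its place, 2 were tested: ITGA2B, the platelet partner of ITGB3, fell (log2 fold change -1.40, adjusted p 0.000335), and ITGAE did not pass (-0.04).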

How the data were processed

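The authors deposited a table of normalized signal: reads per gene divided by a scaling factor per library. Per the submitters' processing notes, bcl2fastq 2.20, STAR 2.7.3, build hg19, FastQC and DESeq2 1.24.0 were used; libraries were stranded poly(A) libraries, per the labels' protocols. For the counting program, its annotation and its use of strand, nothing was given in the sources used here. The authors also deposited comparison tables with log2 fold changes and adjusted p-values, used as an alternative.

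Values of 15990 genes with a mean of at least 10 were fitted as log2(value + 1) with limma 3.58.1 (R 4.3.3; variance trend, 4 groups in 1 fit), and p-values were adjusted by Benjamini-Hochberg over these genes. Log2 fold changes are on that scale, which understates those of low genes. Whole read counts were recovered from the deposited signal (100% of values whole within 0.01; 31.2 to 39.5 M per library) and tested with edgeR 4.0.16 and DESeq2 1.42.0 as alternatives. All 58 tested chains were counted, and 1 of them is not reported here by name or drawn. The fitting was tested on simulated data. The genes, lists and pairs were chosen with earlier results of these data known. Exon lengths and overlaps came from GENCODE release 29 (GRCh38), matched by gene identifier.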

Additional observations from a re-analysis of the deposited data

How the results depend on the processing

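Of the chains called, 22 of 34 (IFNa against DMSO), 24 of 36 (Combination against DMSO), 20 of 30 (Combination against FC-A) and 0 of 1 (FC-A against DMSO) kept their call under each alternative setting in which they were tested. There were 25 such settings. COL4A3, COL14A1, COL8A2 and ITGB7 were tested in 24 of them, as they lay below the minimum mean of 50 used in the other, and the counts of kept calls include chains of this kind. In FC-A against DMSO, 0 chains were called with no variance trend and 2 (COL16A1 and COL7A1) with the replicate block, with DESeq2 and in the authors' deposited tables. In the Combination against IFNa, 8 were called with the replicate block, 8 without replicate 3 of every group, and 5 without IFNa replicate 3. Leaving out each library in turn gave 0 to 1 calls for FC-A against DMSO, 26 to 35 for IFNa against DMSO, 27 to 37 for the Combination against DMSO, 0 to 5 against IFNa, 25 to 36 against FC-A and 0 for the interaction. In IFNa against DMSO, some chains not called with all libraries passed without a single library. These were ITGA1 (without DMSO 1), COL25A1 (IFNa 1), COL9A2, COL5A2 and COL27A1 (IFNa 2), and LAMC1 and ITGA7 (IFNa 3). Under quantile scaling ITGB1 had a log2 fold change of -0.059 (adjusted p 0.402) in the Combination against DMSO and -0.0098 (0.900) against FC-A, both above 0 otherwise; the cause was not tested. In the Combination against FC-A, the share of calls that were higher was 80% and became 51.4% with quantile scaling, 69.7% with edgeR and with DESeq2, and 70% with the replicate block. In IFNa against DMSO it was 76.5% and 62.5% with quantile scaling, and in the Combination against DMSO 75% and 58.8%. Libraries of the same number in different groups had correlations of 0.0176 to 0.395 between their deviations, 10 of 18 of them over 0.1, and 8 of 12 libraries correlated best with their own number; the labels do not say that the numbers pair the samples. Chains near 10 normalized reads (COL13A1, COL25A1, ITGB7) had wide 95% intervals, reaching up to 0.87 on the log2 scale to either side, and the cause of this was not tested.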
